A study of Solanum pimpinellifolium with 72 samples.

Results

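FAB, SlBAM1, SlCLV2 and FIN encode the tomato receptors of CLAVATA-type peptides and the enzyme that decorates those peptides, and their transcripts were followed through 72 whole mRNA-seq libraries of floral meristems and young buds. The 4 genes were taken by gene identifier, as FAB (Solyc04g081590), SlBAM1 (Solyc02g091840), SlCLV2 (Solyc04g056640) and FIN (Solyc11g064850), out of 34727 genes in the expression table. All 4 were detected in every library and all 4 passed the filter on low values, which kept 20577 genes with at least 1 RPKM (reads scaled to the length of the gene model and to the reads of the library) in at least 4 libraries.

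In the shoot meristem, stem cells secrete the CLAVATA3 (CLV3) peptide, and receptors in neighbouring cells perceive it and restrict the stem cell promoting factor WUSCHEL (WUS). FAB is the tomato counterpart of the receptor kinase CLAVATA1, SlBAM1 belongs to the related BARELY ANY MERISTEM kinases, and SlCLV2 is a receptor-like protein that carries no kinase domain. FIN is a hydroxyproline O-arabinosyltransferase that adds arabinose to CLE peptides such as CLV3, and tomato plants lacking FAB or FIN make enlarged meristems and flowers with extra organs.

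All plants were Solanum pimpinellifolium of background accession LA1589, a wild relative of cultivated tomato, and each of the 18 groups of genotype and stage had 4 libraries. The transgenic RNAi-SlCLV3 plants carried a hairpin against SlCLV3 under a constitutive viral promoter, so the hairpin was not limited to the meristem. The lc/fas, fas and lc plants were near-isogenic lines with 1 or both of the natural alleles, lc lying downstream of SlWUS and fas being an inversion that breaks the SlCLV3 promoter. HC2 plants carried the fas allele together with a genomic copy of SlCLV3, and the wild type (WT) carried none of these alleles. The early stage pooled inflorescence and floral meristems with buds at 2 days post floral initiation (dpi), and the later stages were whole buds at 4 dpi and 6 dpi. The methods give 6 plants per genotype but name only the wild type and RNAi-SlCLV3 there, so plant numbers of the other genotypes are not stated. The labels do not tie a replicate to a plant, so the p-values measure the spread between these libraries.

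Reads in genes, recovered from the steps of the RPKM values, numbered 2.93 M to 58.6 M per library with a median of 19.1 M. There were 7 libraries under 10 M, among them WT early replicates 3 (2.93 M) and 4 (7.16 M) and WT 4dpi replicate 3 (8.53 M). The low read numbers first recovered for WT early replicate 3 came out nearly all even, so its inferred total was halved. The RPKM values were not altered. The targeted gene SlCLV3 had 2.24, 4.6, 4.58 and 4.16 RPKM in the RNAi-SlCLV3 early libraries and 6.97, 10.5, 7.83 and 4.66 RPKM in the WT early libraries. It was lower there in the RNAi-SlCLV3 plants (log2 difference -0.78, SE 0.23, limma adjusted p = 0.036) and did not pass at 4dpi (0.17, SE 0.23) or 6dpi (0.0072, SE 0.23). At 4dpi and 6dpi its means were near the floor, 1.60 and 0.776 RPKM in RNAi-SlCLV3 and 1.36 and 0.708 RPKM in WT. The paper considers that SlCLV3 signal left in these plants likely came from incomplete RNAi or from the hairpin itself. The later values therefore do not show whether the native transcript was reduced.

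The RPKM values of FAB and FIN rest on short counted lengths, inferred from the steps of the values. Whole reads were obtained in 72 of 72 libraries with a counted length of 265 bases for FAB, 3514 for SlBAM1, 2240 for SlCLV2 and 152 for FIN. FAB had 227 to 3339 reads per library (median 1125), SlBAM1 949 to 14490 (median 4858), SlCLV2 100 to 1278 (median 496) and FIN 75 to 1412 (median 410.5). The order of the genes depended on this length. FAB stood highest per length and SlBAM1 highest in reads. Whether the gene models are that short, and whether reads beyond these lengths were also counted, was not tested. Levels are therefore compared below within a gene, and a ratio of 2 genes is used only to follow its change between stages.

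All 4 genes were at their highest or near it in the early stage and were lower at 4dpi, after which they parted: FAB fell again by 6dpi, SlCLV2 did not change detectably, and SlBAM1 and FIN rose. FAB averaged 327 ± 31.5 RPKM in the early stage, 228 ± 29.2 RPKM at 4dpi and 199.9 ± 19.8 RPKM at 6dpi (SD, n = 24 libraries of 6 genotypes each). SlBAM1 averaged 94.2 ± 13.4, 68.6 ± 12.02 and 77.1 ± 7.84 RPKM at the same stages. SlCLV2 averaged 14.2 ± 1.33, 11.1 ± 1.30 and 11.4 ± 1.14 RPKM, and FIN 148 ± 13.7, 126 ± 19.4 and 149 ± 15.3 RPKM. In these bulk samples fewer expressing cells and less RNA per cell cannot be told apart.

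**Figure D1:**
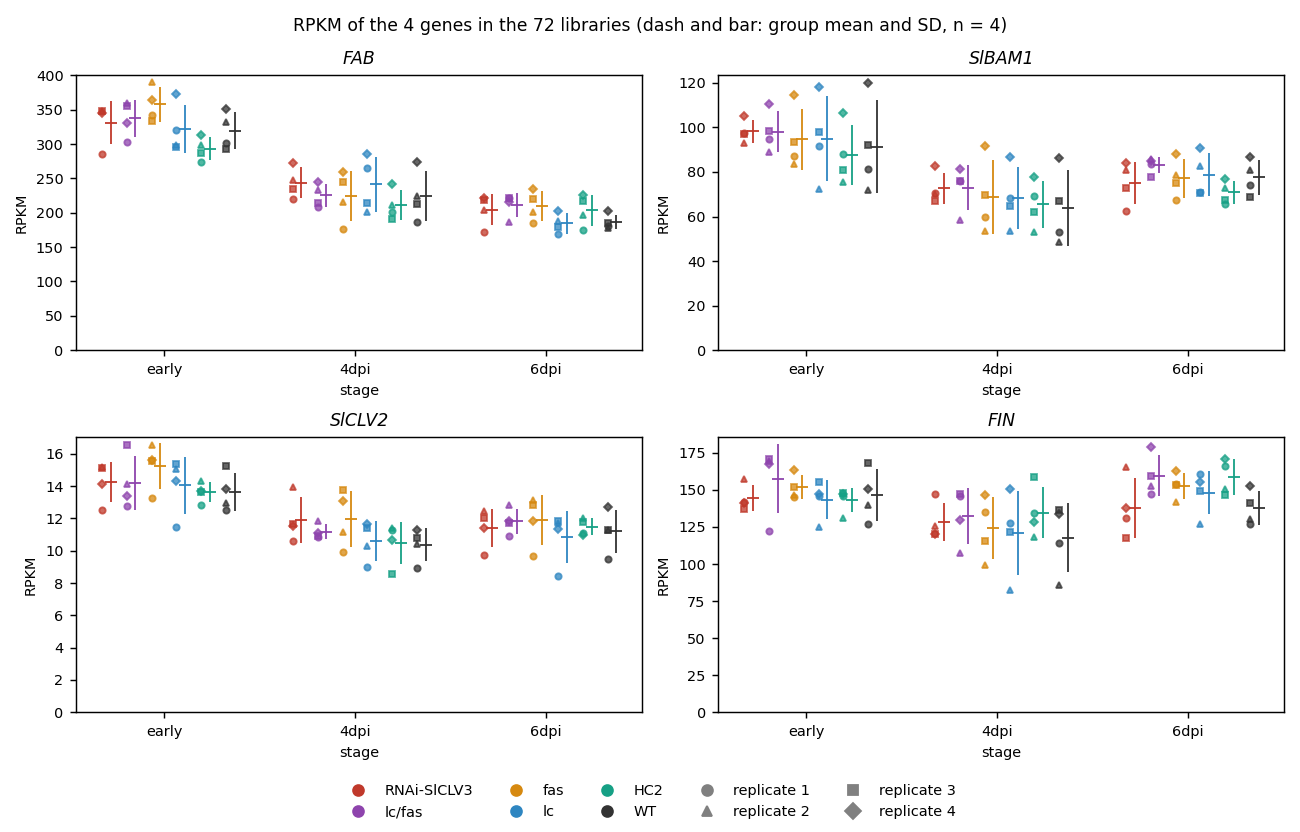
RPKM (vertical axes, starting at 0) of FAB, SlBAM1, SlCLV2 and FIN in each of the 72 libraries, by stage and genotype; symbols mark the replicate number, and the dash with its bar is the group mean with its SD (n = 4). FAB libraries span 275 to 390 RPKM early, 177 to 285 RPKM at 4dpi and 168 to 234 RPKM at 6dpi, and within a stage the genotypes overlap in FAB, except HC2 and fas in the early stage.

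FAB, the CLAVATA1-type receptor kinase, had the largest range of the 4 genes, with group means from 184 RPKM in lc 6dpi to 358 RPKM in fas early, a ratio of 1.94. RNAi-SlCLV3 libraries had 285, 348, 348 and 345 RPKM early, 219, 248, 234 and 273 RPKM at 4dpi, and 172, 204, 219 and 222 RPKM at 6dpi. WT libraries had 302, 332, 292 and 352 RPKM early, 187, 224, 212 and 273 RPKM at 4dpi, and 180, 178, 186 and 202 RPKM at 6dpi. In both genotypes every library at 4dpi lay below every early one, while the 4dpi and 6dpi libraries overlapped. In 6 of 6 genotypes the 4dpi libraries lay below all early ones, and 24 of 24 libraries were below the early library with the same genotype and replicate number. In WT the libraries of these 2 stages did not overlap in 20.3% of all 20577 genes, in either direction. No such share was taken in the other genotypes. Nor was one taken for the same-numbered pairs, here or for the other genes below. Over genotypes 45.3% of all genes were called lower at this step, so these counts alone do not set FAB apart.

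Averaged over genotypes, FAB fell by 0.52 on the log2(RPKM + 1) scale at 4dpi against early (SE 0.044, 95% interval -0.61 to -0.43, limma adjusted p = 4.5e-16). It fell by a further 0.19 at 6dpi against 4dpi (SE 0.044, 95% interval -0.27 to -0.098, limma adjusted p = 0.00048). The size of the first step in WT alone was also -0.52 (SE 0.11, limma adjusted p = 0.00011). For the second step the WT libraries gave -0.25 (SE 0.11), which did not pass over all genes (limma adjusted p = 0.16). It passed with a replicate block in the fit (limma adjusted p = 0.027). The block fits an effect of each replicate number shared by all genotypes and stages, so it does not pair the WT libraries alone.

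Most genes moved between stages, so the calls are read against that background. At 4dpi against early over genotypes 66.9% of the 20577 genes were called, with 45.3% of all genes lower and 21.7% higher, and all 4 genes fell. At 6dpi against 4dpi 38% of genes were called, 26.1% higher and 11.9% lower, and here 2 of the 4 genes rose and 1 fell. In WT alone 28% of genes were called at the first step (16.3% lower, 11.7% higher), where all 4 fell, and 8.1% at the second (1.7% lower, 6.4% higher), where in limma 0 of the 4 passed and FAB and SlBAM1 had an unadjusted p under 0.05. The median log2 difference of the 4 genes was -0.39 at the first step over genotypes, beside -0.095 over all genes tested, and 0.11 at the second, beside 0.039. Scaling bears on the direction of the background: 67.7% of the calls at the first step were lower, 51.7% after median-of-ratios scaling and 62.6% after quantile normalization, and at the second step 31.3%, 45.2% and 58.6%. In WT alone the lower share of calls at the first step was 58.2%, and 39.5%, 48.2% and 44.1% with median-of-ratios scaling, quantile normalization and only the groups compared, so the majority direction turned. At the second step in WT it was 20.9%, 30% after median-of-ratios scaling and 44.4% after quantile normalization.

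SlBAM1, a kinase of the BAM group, fell at 4dpi and came part of the way back by 6dpi. RNAi-SlCLV3 libraries had 97.6, 93.1, 97.0 and 105 RPKM early, 70.7, 70.1, 67.0 and 82.5 RPKM at 4dpi, and 62.6, 80.8, 72.7 and 83.8 RPKM at 6dpi. WT libraries had 81.5, 71.8, 92.1 and 120.1 RPKM early, 53.0, 48.4, 67.2 and 86.2 RPKM at 4dpi, and 74.0, 80.7, 68.9 and 86.8 RPKM at 6dpi. In RNAi-SlCLV3 the early and 4dpi libraries were apart, whereas in WT 3 of 4 libraries at 4dpi lay below all early ones and replicate 4 lay within their range. In WT 20.3% of all genes were apart at this step, and no such share was taken in RNAi-SlCLV3 or for same-numbered pairs. The 4dpi level was below the same-numbered early library in 24 of 24 cases, and the 6dpi level above the 4dpi library in 20 of 24.

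Over genotypes SlBAM1 fell by 0.46 at 4dpi against early (SE 0.062, limma adjusted p = 3.0e-09) and rose by 0.18 at 6dpi against 4dpi (SE 0.062, limma adjusted p = 0.017). The later rise was largest in replicate number 2. Without the 18 libraries of that number it was 0.068 with a limma adjusted p of 0.49, while without numbers 1, 3 or 4 it was 0.21 to 0.23. In WT alone the fall was 0.52 (SE 0.15, limma adjusted p = 0.0060), and it did not pass without WT 4dpi replicate 2 (-0.41, adjusted p = 0.056), without WT early replicate 4 (-0.39, adjusted p = 0.065) or without the libraries under 10 M reads (-0.33, adjusted p = 0.22). The WT difference of 0.31 at 6dpi (SE 0.15, limma adjusted p = 0.24) passed with the replicate block (limma adjusted p = 0.026) and without WT 4dpi replicate 4 (0.47, adjusted p = 0.049). The block shares its replicate effects between stages. For SlBAM1, replicate 2 was lowest in 5 of 6 groups at 4dpi and in 0 of 6 at 6dpi.

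**Figure D2:**
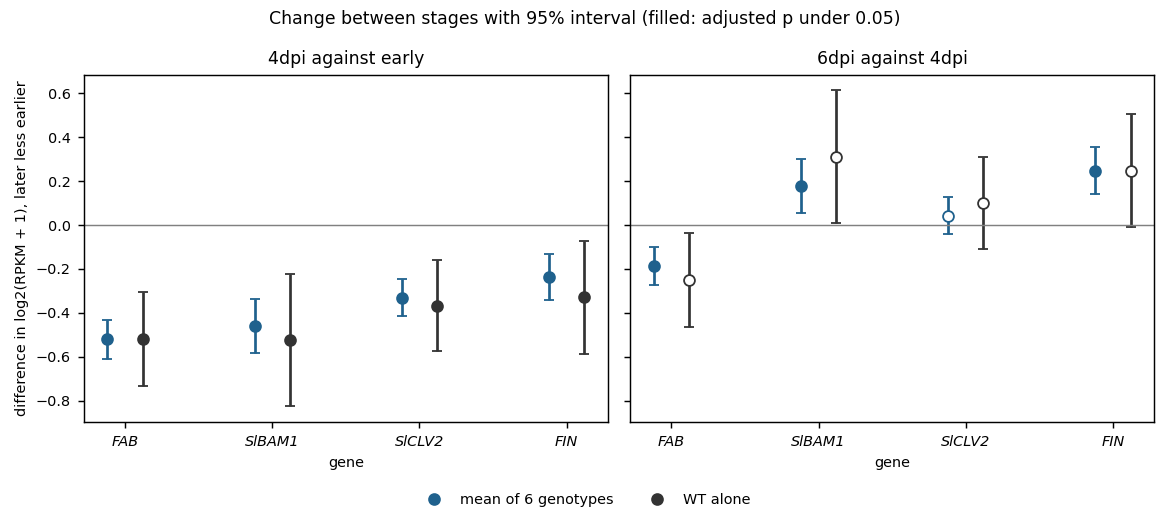
Difference in log2(RPKM + 1) of each gene (vertical axis) at 4dpi against early (left) and at 6dpi against 4dpi (right), for the mean of 6 genotypes and for WT alone; bars are 95% intervals, and filled points passed an adjusted p of 0.05. All points lie below 0 on the left, and on the right FAB lies below 0 while SlBAM1 and FIN lie above it.

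SlCLV2, the receptor-like protein, fell at 4dpi and did not pass the test of a change after it. RNAi-SlCLV3 libraries had 12.5, 15.2, 15.1 and 14.2 RPKM early, 10.6, 13.9, 11.7 and 11.5 RPKM at 4dpi, and 9.73, 12.4, 12.03 and 11.4 RPKM at 6dpi. WT libraries had 12.5, 12.96, 15.2 and 13.9 RPKM early, 8.93, 10.4, 10.8 and 11.3 RPKM at 4dpi, and 9.51, 11.3, 11.3 and 12.7 RPKM at 6dpi. The early and 4dpi libraries were apart in lc/fas, HC2 and WT and overlapped in RNAi-SlCLV3, fas and lc. Of all genes 20.3% were apart at this step in WT, and no such share was taken in lc/fas or HC2. The 4dpi and 6dpi libraries overlapped in 6 of 6 genotypes.

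The fall of SlCLV2 at 4dpi against early was 0.33 over genotypes (SE 0.042, limma adjusted p = 8.5e-10), with the level lower in 24 of 24 same-numbered pairs. Its difference at 6dpi against 4dpi was 0.043 (SE 0.042, 95% interval -0.042 to 0.13, limma adjusted p = 0.44), higher in 15 of 24 pairs, and it was -0.040 after quantile normalization. In WT alone the first step was -0.37 (SE 0.10, limma adjusted p = 0.0052), and it did not pass without the libraries under 10 M reads (-0.30, adjusted p = 0.13) or with only the WT early and 4dpi libraries in the fit (adjusted p = 0.063).

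FIN, the arabinosyltransferase, was lower at 4dpi and had a mean at 6dpi close to its early mean. Its libraries spanned 122 to 171 RPKM early, 82.6 to 158 RPKM at 4dpi and 117 to 179 RPKM at 6dpi. RNAi-SlCLV3 libraries had 142, 157, 137 and 141 RPKM early, 147, 125, 120.1 and 120.2 RPKM at 4dpi, and 131, 165, 117 and 138 RPKM at 6dpi. WT libraries had 127, 139.7, 168 and 151 RPKM early, 114, 86.0, 136 and 134 RPKM at 4dpi, and 127, 130.4, 141 and 153 RPKM at 6dpi. In no genotype were the libraries of any 2 stages apart. In WT 20.3% of all genes were apart at 4dpi against early and 10.7% at 6dpi against 4dpi. Over genotypes the group mean was lower at 4dpi than early in 6 of 6 genotypes and higher at 6dpi than at 4dpi in 6 of 6, and 13 of 24 same-numbered libraries were higher at 6dpi than early.

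FIN fell by 0.24 at 4dpi against early over genotypes (SE 0.053, limma adjusted p = 9.0e-05) and rose by 0.25 at 6dpi against 4dpi (SE 0.053, limma adjusted p = 0.00011). Both steps were smaller without replicate number 2, at -0.15 (limma adjusted p = 0.0043) and 0.17 (adjusted p = 0.0040). The fall was also -0.16 after median-of-ratios scaling (limma adjusted p = 0.0058). In WT alone the fall of 0.33 (SE 0.13, limma adjusted p = 0.047) was at the threshold. It did not pass without WT 4dpi replicate 1 (-0.32, limma adjusted p = 0.081), WT 4dpi replicate 2 (-0.19, adjusted p = 0.32), WT early replicate 2 (-0.35, adjusted p = 0.060), WT early replicate 3 (-0.26, adjusted p = 0.16) or WT early replicate 4 (-0.31, adjusted p = 0.096), nor without the libraries under 10 M reads (-0.28, adjusted p = 0.22).

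The different courses of the genes are also seen within single libraries, where a ratio of 2 genes does not depend on the scaling of the library. The ratio of FAB to FIN had a median of 2.22 early (1.74 to 2.66 in 24 libraries), 1.89 at 4dpi (1.21 to 2.60) and 1.32 at 6dpi (1.05 to 1.86). In WT the lowest early ratio was 1.74 and the highest 6dpi ratio 1.42. The ratio of FAB to SlBAM1 had medians of 3.52, 3.30 and 2.65 at the 3 stages, and that of FAB to SlCLV2 medians of 23.2, 19.8 and 17.8. For SlBAM1 to SlCLV2 the medians were 6.46, 6.18 and 6.76. Against FIN, SlBAM1 had medians of 0.621, 0.542 and 0.489 and SlCLV2 medians of 0.0962, 0.0850 and 0.0772. In these pooled medians all 3 receptors were lower relative to FIN at 6dpi than early, and FAB was also lower relative to SlBAM1 and SlCLV2. The libraries overlapped: SlBAM1 to FIN spanned 0.514 to 0.803 early and 0.396 to 0.650 at 6dpi, and SlCLV2 to FIN 0.0786 to 0.120 and 0.0526 to 0.103. In WT the SlBAM1 to FIN medians were 0.595 early, 0.527 at 4dpi and 0.576 at 6dpi, so little lower at 6dpi than early. Those of SlCLV2 to FIN in WT were 0.0923, 0.0817 and 0.0815. These ratios are given as a description, with no test.

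**Figure D3:**
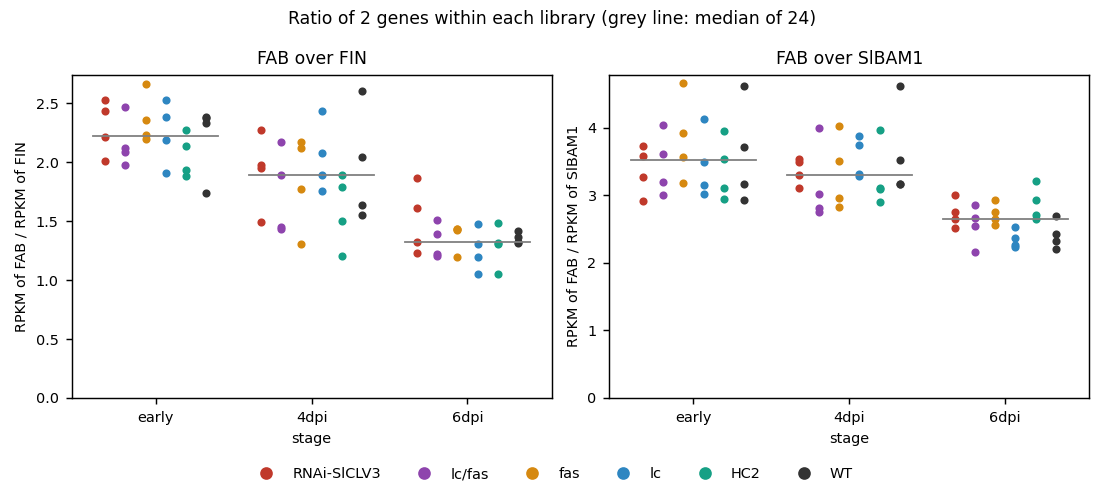
RPKM of FAB over RPKM of FIN (left) and over RPKM of SlBAM1 (right) within each of the 72 libraries, by stage and genotype; grey lines are medians of 24 libraries and both axes start at 0. The FAB to FIN medians are 2.22, 1.89 and 1.32 at early, 4dpi and 6dpi.

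The summed levels of marker genes of meristem and floral organs also differed between stages, and only FAB followed the meristem sum at both steps. The median of the meristem sum was 234 RPKM early, 92.5 RPKM at 4dpi and 54.9 RPKM at 6dpi, while SlBAM1 and FIN rose at the second step. The summed level of the meristem markers SlWUS, SlCLV3 and TKN2 was 191 to 307 RPKM early, 65.3 to 139.9 RPKM at 4dpi and 37.6 to 102 RPKM at 6dpi. That of the floral organ markers TAG1, TM5 and an AP1-like gene was 68.3 to 137 RPKM early, 204 to 323 RPKM at 4dpi and 280.03 to 408 RPKM at 6dpi. No marker of either list was at 0 in any library. TKN2 made up most of the first sum (means of 195, 87.8 and 53.4 RPKM). TM5 made up most of the second from 4dpi on (174 and 202 RPKM). The sums do not measure the share of a tissue, and the part of the markers in the stage differences of the 4 genes was not tested. Among other genes of the meristem, TKN2, AGL20, ANT and LHW fell at 4dpi against early over genotypes (4 of 4), and 2 of 4 fell again at 6dpi. The partners SlCLV3, SlWUS and SlCLE9 fell at both steps over genotypes (3 of 3 each). For SlWUS, the transcription factor restricted by the pathway, the first step was -2.09 (SE 0.11, limma adjusted p = 6.5e-26), against -0.52 for FAB. The 3 sterol biosynthesis genes listed as a contrast to meristem genes rose at the first step (3 of 3) and 0 of 3 passed at the second. Of the 3 floral organ markers 2 rose and 1 fell at the first step, and 1 rose and 1 fell at the second. The marker that fell was the AP1-like gene, with means of 67.8, 27.9 and 22.5 RPKM at early, 4dpi and 6dpi.

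Across the 18 group means of log2(RPKM + 1), FAB had r = 0.95 with TKN2, 0.94 with SlWUS, 0.93 with ANT, 0.92 with SlCLV3 and 0.91 with LHW. In the order of likeness over 20576 other genes these took places 185, 282, 417, 646 and 788. The other 2 listed genes were less like FAB, SlCLE9 with r = 0.76 (place 3864) and AGL20 with r = 0.75 (place 4062). SlCLV2 was nearest to ANT among the listed genes (r = 0.94, place 123), as was SlBAM1 apart from SlCLV2 (r = 0.89, place 279). Among the receptors r was 0.90 for SlCLV2 and SlBAM1, 0.90 for FAB and SlCLV2, and 0.76 for FAB and SlBAM1. SlCLV2 took place 200 for SlBAM1 and 1081 for FAB, and SlBAM1 took place 4009 for FAB, so many other genes were as like each of them. FIN had r = 0.22 with FAB, 0.52 with SlCLV2, 0.67 with SlBAM1, 0.17 with SlCLV3 and 0.22 with SlWUS.

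The genes most like FAB were Solyc02g065350 (r = 0.976) and Solyc11g016970 (r = 0.976), and those most like SlBAM1 were Solyc09g008240 (r = 0.9752) and Solyc06g072110 (r = 0.967). For SlCLV2 they were Solyc06g068980 (r = 0.974) and Solyc12g044880 (r = 0.973), and for FIN Solyc01g091460 (r = 0.959) and Solyc06g065540 (r = 0.939). These 18 points share stages, so the correlations describe mainly the course over the stages, and no p is given.

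The early groups led the order of the 18 groups in 3 of the 4 genes, and groups of the later stages were mostly interleaved. The 6 early groups were the 6 highest for FAB, SlBAM1 and SlCLV2, and the 6 groups at 4dpi were the 6 lowest for FIN. For FAB the order began with fas early at 358 ± 25.1 RPKM, lc/fas early at 337 ± 26.3, RNAi-SlCLV3 early at 331 ± 30.9, lc early at 322 ± 35.3, WT early at 319.6 ± 27.3 and HC2 early at 293 ± 16.8 RPKM (SD, n = 4 each). It went on from RNAi-SlCLV3 4dpi at 244 ± 22.8 to WT 6dpi at 187 ± 10.8 and lc 6dpi at 184 ± 14.7 RPKM. The gap between HC2 early and RNAi-SlCLV3 4dpi was the 1 place of 17 where neighbouring groups did not overlap. For SlBAM1 the means ran from RNAi-SlCLV3 early at 98.2 ± 5.08 to WT 4dpi at 63.7 ± 17.0 RPKM, for SlCLV2 from fas early at 15.2 ± 1.41 to WT 4dpi at 10.4 ± 1.02 RPKM, and for FIN from lc/fas 6dpi at 159 ± 13.8 to WT 4dpi at 118 ± 23.3 RPKM. In these 3 genes 17 of 17 neighbouring pairs overlapped.

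Each genotype was set against WT to ask whether a changed SlCLV3 or SlWUS locus came with changed levels of the receptors and of FIN. In the fit without a replicate block none of the 4 genes was called in any of these comparisons or in HC2 against fas. With the block FAB passed in HC2 against fas in the early stage (limma adjusted p = 0.036). The counts that follow are from the fit without the block unless it is named. Averaged over stages, 0 of 24 tests passed in limma and 3 had an unadjusted p under 0.05, and within stages 0 of 72 passed and 1 had an unadjusted p under 0.05. In the same comparisons over stages 12.9% of all genes were called for RNAi-SlCLV3 against WT, 1.02% for lc/fas, 0.0826% for fas, 0.539% for lc and 6.65% for HC2 against WT, and 3.81% for HC2 against fas. Genes called higher were 7.9% for RNAi-SlCLV3 against WT, 0.821% for lc/fas, 0.0632% for fas, 0.369% for lc and 4.59% for HC2 against WT, and 2.47% for HC2 against fas. These splits depended on scaling for RNAi-SlCLV3 against WT, with 1625 higher and 1023 lower as deposited, 1300 higher and 1415 lower once scaled by median of ratios, and 1215 higher and 1536 lower when quantile normalized. For HC2 against WT they were 945 and 423, 672 and 654, and 597 and 729, and for HC2 against fas 509 and 275, 495 and 316, and 454 and 398. For fas and for lc/fas against WT they were 13 and 4, and 169 and 41, as deposited, and 12 and 6, and 130 and 56, after median-of-ratios scaling. With a replicate block the shares called were 21.9% for RNAi-SlCLV3, 2.21% for lc/fas, 0.292% for fas, 0.919% for lc and 13.5% for HC2 against WT, and 7.12% for HC2 against fas. Within stages (early, 4dpi and 6dpi) the shares called were 0.36%, 0.267% and 0.18% for lc/fas, 0.0583%, 0.0194% and 0.0243% for fas, and 0.18%, 0.175% and 0.146% for lc against WT. They were 1.39%, 1.39% and 0.943% for HC2 against WT and 1.39%, 0.948% and 0.802% for HC2 against fas. The 5 comparisons with WT share the WT libraries and are not independent.

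The differences over stages were small, and their intervals, from the fit without a replicate block, bound them. For RNAi-SlCLV3 against WT they were 0.10 for FAB (95% interval -0.022 to 0.23, limma adjusted p = 0.29), 0.098 for SlBAM1 (-0.076 to 0.27), 0.090 for SlCLV2 (-0.031 to 0.21) and 0.040 for FIN (-0.11 to 0.19). Over the 6 comparisons and 4 genes the outermost bounds were -0.27 and 0.32 on the log2 scale, which is a ratio of 0.83 to 1.25. Within stages the bounds were wider, -0.50 to 0.52, a ratio of 0.707 to 1.43. The differences over stages rest on 12 libraries per genotype and those within stages on 4. Several values moved by over 1.5 times when the libraries of 1 replicate number were left out of a genotype, with none of the calls changed. For RNAi-SlCLV3 against WT over stages FAB then ran over 0.060 to 0.17, SlBAM1 over 0.030 to 0.21, SlCLV2 over 0.033 to 0.15 and FIN over -0.022 to 0.094. The ends for SlBAM1 came without WT replicates 2 and 4, those for SlCLV2 without WT replicate 1 and RNAi-SlCLV3 replicate 1, and those for FIN without WT replicates 2 and 3. For FAB they came without WT replicate 1 and RNAi-SlCLV3 replicate 1. The 3 differences over stages with an unadjusted p under 0.05 were SlCLV2 in fas against WT at 0.14 (SE 0.060, limma adjusted p = 0.59), FIN in lc/fas against WT at 0.16 (SE 0.074, limma adjusted p = 0.40) and FAB in HC2 against fas at -0.13 (SE 0.062, limma adjusted p = 0.29).

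**Figure D4:**
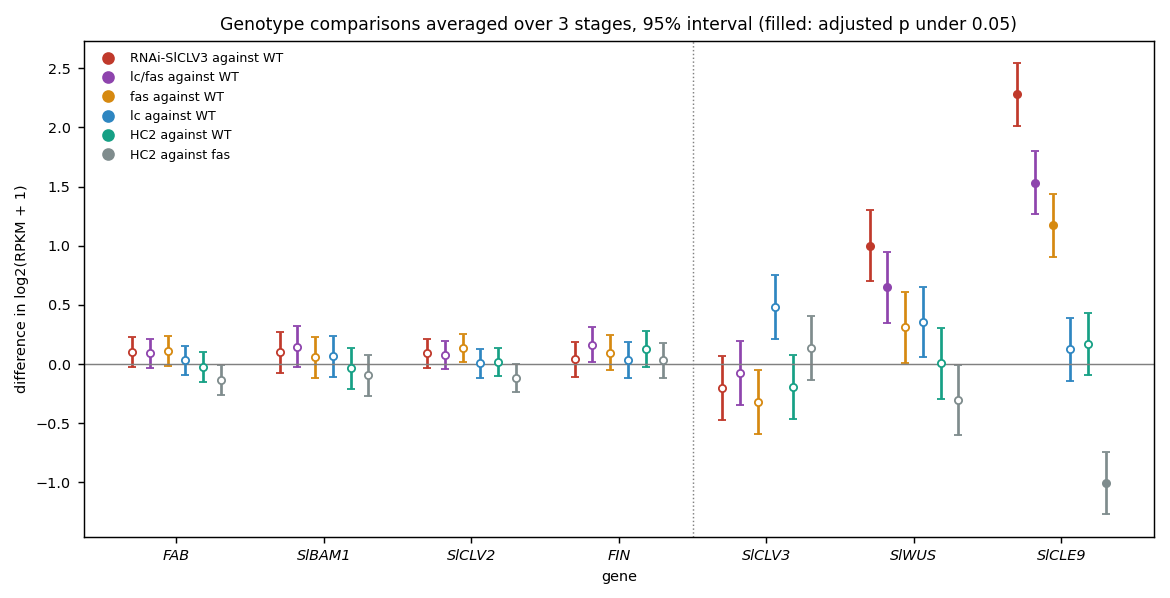
Difference in log2(RPKM + 1) averaged over 3 stages (vertical axis) for 6 genotype comparisons in the 4 genes (left of the dotted line) and in SlCLV3, SlWUS and SlCLE9 (right); bars are 95% intervals, and filled points passed an adjusted p of 0.05. The 4 genes lie between -0.13 and 0.16 with no filled point, and SlCLE9 reaches 2.28 in RNAi-SlCLV3 against WT.

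The same libraries did show changes in the partners of these genes. SlCLE9, a CLE peptide gene related to SlCLV3, was higher by 2.28 in RNAi-SlCLV3 against WT over stages (SE 0.13, limma adjusted p = 8.7e-22), and SlWUS by 1.00 (SE 0.15, limma adjusted p = 8.2e-07). In lc/fas against WT 2 of the 3 partners were higher, in fas against WT 1, and in HC2 against fas SlCLE9 fell by 1.00. SlCLV3 itself was not called in HC2 against fas over stages. Its early means were 5.34 ± 0.293 RPKM in HC2, 4.98 ± 1.09 RPKM in fas and 7.48 ± 2.40 RPKM in WT (SD, n = 4 each). Of the meristem genes TKN2, AGL20, ANT and LHW, 3 of 4 were higher in RNAi-SlCLV3 over stages and 1 of 4 in lc/fas, while 0 of 4 passed in fas, lc and HC2 against WT or in HC2 against fas. Meristem markers also summed to more in the RNAi-SlCLV3 buds, with 124 to 139.9 RPKM at 4dpi against 65.3 to 94.9 RPKM in WT, and 79.1 to 102 RPKM at 6dpi against 46.3 to 57.9 RPKM in WT. This sum holds SlCLV3, the target of the hairpin, and SlWUS, which the pathway restricts, so it does not measure the amount of meristem. The 4 genes were not called in those buds.

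By stage, the differences between RNAi-SlCLV3 and WT did not pass at any stage. At 4dpi they were 0.13 for FAB, 0.22 for SlBAM1, 0.18 for SlCLV2 and 0.14 for FIN (SE 0.10 to 0.15, lowest limma adjusted p = 0.36). Of all genes 3.46% were called there, 2.7% as higher, and the median over all genes was 0.050. Without 1 library these values ran over 0.048 to 0.23 for FAB, 0.10 to 0.37 for SlBAM1, 0.11 to 0.23 for SlCLV2 and 0.00084 to 0.22 for FIN, with the lowest of SlBAM1 and FIN without WT 4dpi replicate 2 and the highest of FAB and SlBAM1 without WT 4dpi replicate 4. The lowest of FAB came without WT 4dpi replicate 1, the highest of FIN without WT 4dpi replicate 3, and the ends of SlCLV2 without RNAi-SlCLV3 4dpi replicates 2 and 1. For SlCLV2 at 4dpi 3 of 4 RNAi-SlCLV3 libraries lay above every WT library. At 6dpi the 4 differences ran from -0.052 to 0.12 with 1.25% of genes called, and in the early stage from -0.014 to 0.13 with 4.58% called. Without the libraries under 10 M reads, 2 of them WT early, the early difference of SlBAM1 was 0.36 (limma adjusted p = 0.26). The change of the RNAi-SlCLV3 effect between stages was tested directly. It passed for 0 of the 4 genes in 3 pairs of stages, with 0 of 12 tests at an unadjusted p under 0.05 (lowest limma adjusted p = 0.97, background 0.17%, 0.34% and 0.00972% of genes called), and the largest was -0.27 for SlBAM1 at 6dpi less 4dpi (SE 0.21).

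The tests over all 6 genotypes together were passed by 0 of the 4 genes without a replicate block, with 0 at an unadjusted p under 0.05, and by SlCLV2 with it. The genotype effect, an F test with 5 degrees of freedom, had F = 1.71 for FAB, 1.15 for SlBAM1, 1.70 for SlCLV2 and 1.41 for FIN (limma adjusted p = 0.34 to 0.54), where 15.8% of genes were called. With the replicate block 30.3% of genes were called. There SlCLV2 had F = 3.19 (limma adjusted p = 0.046) and FAB F = 3.07 (limma adjusted p = 0.052). The genotype by stage interaction with 10 degrees of freedom had F = 1.04, 0.20, 0.30 and 0.44 for the same genes, where 0.296% of genes were called.

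Among the 72 tests within stages, of a genotype against WT or of HC2 against fas, 1 had libraries that did not overlap. Other pairs of genotypes were not counted, and SlBAM1 at 6dpi was apart in lc/fas (77.9 to 85.9 RPKM) and HC2 (65.8 to 76.9 RPKM). The 1 case was FAB in HC2 against fas in the early stage. There FAB had 275, 298, 286 and 314 RPKM in HC2 against 342, 390.1, 334 and 364 RPKM in fas. The 4 HC2 libraries all lay below the 4 fas libraries, a separation found in 5.22% of all genes in that comparison. The log2 difference was -0.28 (SE 0.11, 95% interval -0.50 to -0.070) and did not pass over all genes (limma adjusted p = 0.35, 1.39% of genes called). It passed with the replicate block (limma adjusted p = 0.036), where 2.36% of genes were called. Same-numbered libraries correlated positively here in all 4 pairs. At 4dpi and 6dpi the differences were -0.073 and -0.046 and the libraries overlapped. HC2 early and WT early overlapped in FAB, with a difference of -0.12 (SE 0.11, limma adjusted p = 0.96).

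Part of the spread within groups followed the replicate number in all 4 genes. SlBAM1 was highest in replicate 4 in 17 of 18 groups, and lowest in replicate 2 in 11 of the 12 early and 4dpi groups but in 0 of the 6 groups at 6dpi. FAB was highest in replicate 4 in 14 of 18 groups and lowest in replicate 1 in 11. SlCLV2 was lowest in replicate 1 in 16 of 18 groups, and FIN at 4dpi was lowest in replicate 2 in 5 of 6 groups. Replicate 2 had 48.4 RPKM of SlBAM1 in WT 4dpi, 53.7 in lc, 53.6 in fas, 58.2 in lc/fas and 53.2 in HC2, while RNAi-SlCLV3 4dpi replicate 2 had 70.1 RPKM. The ratio of 6dpi to 4dpi for SlBAM1 had a median of 1.47 over the genotypes in replicate 2, against 1.07, 1.08 and 1.01 in replicates 1, 3 and 4. For FIN it was 1.43 in replicate 2, against 1.13, 1.06 and 1.14. The study's methods describe weekly tissue collection over 4 weeks, and neither they nor the labels tie a replicate number to a week, so the part of collection time in this pattern was not tested.

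**Figure D5:**
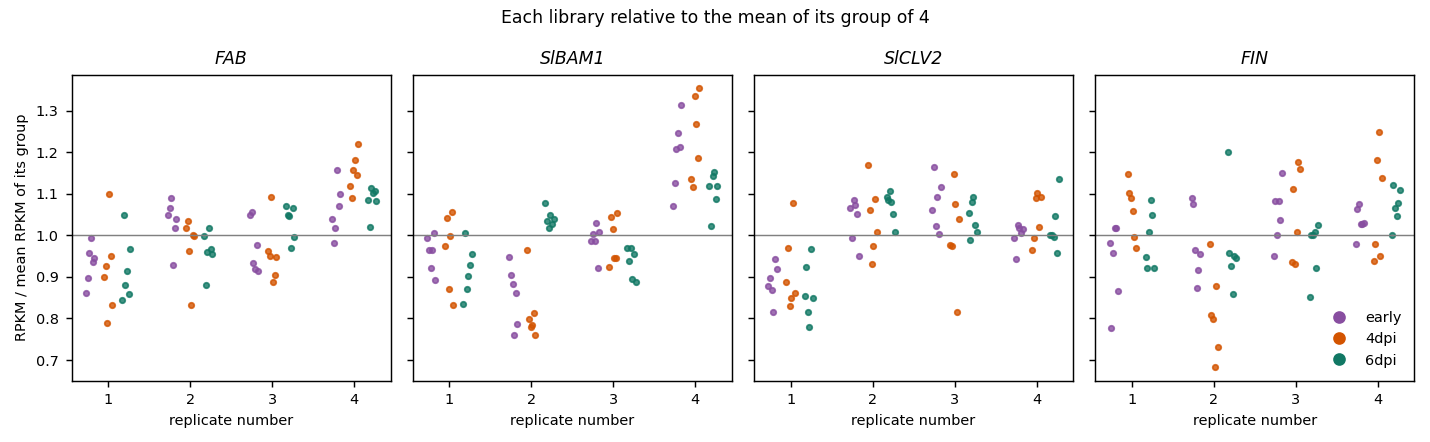
RPKM of each library divided by the mean of its group of 4 (vertical axis) by replicate number, for the 18 groups; colours mark the stage. SlBAM1 lies above 1 in replicate 4 in all 18 groups, and in replicate 2 below 1 early and at 4dpi and above 1 at 6dpi.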

How the data were processed

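Per the labels and the study's methods, the authors sequenced strand-specific 50-base reads, aligned them with TopHat2 and Bowtie2 to the tomato genome with ITAG2.3 genes, and deposited sense-strand RPKM per gene. The values were used as deposited, and whole reads recovered from their steps gave depths only. Values were taken as log2(RPKM + 1), where changes of low genes are understated, and fitted with limma 3.58.1 (trend; R 4.3.3) to 18 group means over all 72 libraries, after a filter of at least 1 RPKM in at least 4 libraries. P-values are two-sided and adjusted by Benjamini-Hochberg over 20577 genes, with calls at 0.05. Simulated data were used to test the script. The 4 members were chosen by name, and they and the gene lists were chosen with earlier results of these data known. The genes named besides them are those lists and, for each member, the 2 genes most correlated over group means. Replicate numbers were checked for pairing: deviations of same-numbered libraries of a stage correlated at r = 0.306 on average (165 of 180 pairs over 0.1), against -0.101 for different numbers. All pairs passed 0.1 for both steps over genotypes and in WT, and for lc, fas and lc/fas against WT. They also did for RNAi-SlCLV3 against WT at 4dpi and 6dpi and for HC2 against fas early and at 6dpi. The change of the RNAi-SlCLV3 effect at 6dpi less 4dpi passed too. The main fit leaves the replicate number out, and the block is given where it changed a call in these comparisons. Alternatives were the pseudocount, the filter, scaling, quantile normalization, the replicate block, only the groups compared, and libraries left out.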

Additional observations from a re-analysis of the deposited data

Results flagged for a closer look

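In each gene the 4 libraries of every group were searched for a value far from the others, by Dixon's gap test at the 95% level. This criterion marks about 1 in 20 groups by chance, and it marked 4 of the 72 sets of 4 libraries. FAB had 285 RPKM in RNAi-SlCLV3 early replicate 1, below 344.5 to 347.8 RPKM in the other 3 libraries. SlCLV2 had 8.45 RPKM in lc 6dpi replicate 1, below 11.3 to 11.8 RPKM in the others. FIN had 131 RPKM in HC2 early replicate 2, below 146 to 148 RPKM, and 122 RPKM in lc/fas early replicate 1, below 168 to 171 RPKM. All 4 were the lowest of their group, and what sets them apart was not tested.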

How the results depend on the processing

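The falls over genotypes at 4dpi kept their direction and passed under all alternatives run, as did the later fall of FAB and rise of FIN. The rise of SlBAM1 over genotypes at 6dpi was 0.14 after median-of-ratios scaling (limma adjusted p = 0.056) and 0.068 to 0.23 with a replicate number left out. In WT alone 3 of the 4 falls at 4dpi did not pass under some alternatives. SlBAM1 gave -0.33 without libraries under 10 M reads, -0.52 with only the groups compared, and -0.68 to -0.39 with a library left out. SlCLV2 gave -0.30 and -0.37 under the first and second of these. FIN gave -0.33 with no filter, -0.24 after median-of-ratios scaling, -0.30 after quantile normalization, -0.28 without libraries under 10 M reads, -0.33 with only the groups compared, and -0.41 to -0.19 with a library left out. With a replicate block the WT differences at 6dpi against 4dpi passed for SlBAM1 (0.31) and FAB (-0.25), and SlBAM1 ran over 0.19 to 0.47 with a library left out. The cause of these changes was not tested. The block also brought the genotype effect of SlCLV2 past the threshold (limma adjusted p = 0.046), in a fit that called 30.3% of all genes against 15.8% without the block. No alternative turned a direction past the threshold. The counts over all genes were less stable: WT 4dpi against early had 2682 calls with only its groups in the fit and 5752 with all libraries, and WT 6dpi against 4dpi had 2645 with the replicate block and 1666 without it. Depth limits SlCLV2 and FIN most, with 100 and 75 reads in their thinnest libraries.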
